A study of Mus musculus with 13 samples.

Results

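The mitochondrial chaperones and proteases were described in gluteal white adipose tissue (WAT) of mice kept at a room temperature of 22°C and at 29°C. They comprise 10 of the 34419 genes in the count table, of which 9 encode proteins of the mitochondrial matrix (*Hspd1*, *Hspe1*, *Hspa9*, *Trap1*, *Lonp1*, *Clpp*, *Clpx*, *Dnaja3* and *Grpel1*) and 1 is a pseudogene of *Hspd1*, *Hspd1-ps4*. The protein-coding genes were chosen by name for their function. *Hspd1-ps4* was included because its count differs between the temperatures, so its difference is given as a description with no test. The set as a whole was proposed with results of this contrast known, so no gene's own p-value between temperatures is given, and counts of members past a threshold stand only beside the share of all genes.

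Proteins imported into mitochondria arrive unfolded and are folded in the matrix. HSP70 of mitochondria, encoded by *Hspa9*, pulls them in and folds them together with the J-protein *Dnaja3* and the nucleotide exchange factor *Grpel1*, and the barrel-shaped chaperonin encoded by *Hspd1* then completes folding with the lid encoded by *Hspe1*. *Trap1* encodes the HSP90 of mitochondria, whereas proteins that do not fold are degraded by the ATP-dependent proteases LONP1 and ClpXP, the latter made of the peptidase *Clpp* and the unfoldase *Clpx*. All are encoded in the nucleus, and in fat their levels are commonly higher in mitochondria-rich brown adipocytes than in white adipocytes.

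RNA was sequenced from gluteal WAT of male C57BL/6J mice, 7 housed at 22°C and 6 housed at 29°C (thermoneutrality) from birth until they were 13 weeks old. All 13 mice were depilated on the hind part of the body from weaning on and lived alone in sparsely bedded cages, so the groups differ by housing temperature. Each library is 1 mouse, and the tissue holds all cell types of the depot, so that fewer cells of a type and less RNA per cell cannot be told apart. Levels are CPM, counts scaled to library size by the TMM method, with SD over mice, and fold changes are 22°C relative to 29°C on the log2 scale with the standard error (SE) of edgeR. Other genes are said to pass the threshold where the p-value of edgeR, adjusted by Benjamini-Hochberg over all genes tested (P-adj), was below 0.1.

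Total counts were between 22356637 and 25245785 per library. Replicates 1 to 5 at 22°C had lower totals (22356637 to 22857079) than the other 8 libraries (24821549 to 25245785), so totals and temperature are partly confounded. All 8 white adipocyte markers were measured in every library, with a summed level of 19897 to 29729 CPM at 22°C and 20256 to 33583 CPM at 29°C. The 15 skeletal muscle markers summed to between 798 and 85461 CPM at 22°C and between 117 and 6736 CPM at 29°C, and all 15 had a higher fitted level at 22°C although 0 passed the threshold with edgeR (8 had an unadjusted p below 0.05, and 8 passed with DESeq2). The 6 brown and beige adipocyte markers summed to 47.4 to 161 CPM at 22°C and 20.5 to 37.6 CPM at 29°C. Of the 5 tested, only 3 had a higher fitted level at 22°C. The threshold was passed by 3 in either direction, where 1.94% of all genes tested passed, and which way each went is not given here. *Ucp1* was at 0 in every mouse at 29°C. Of 16 tested markers of macrophages, lymphocytes, epithelium and red blood cells, 1, of lymphocytes, passed. The part of these cell types in the results below was not tested, except where a fit with the muscle markers is given.

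Because the *Hspd1-ps4* row could hold reads of *Hspd1*, their sequences were compared first. *Hspd1* (ENSMUSG00000025980.15) lies at chr1:55077835-55088243 on the minus strand in GRCm38, with 12 exons. *Hspd1-ps4* (ENSMUSG00000081189.2) is annotated at chr4:106136111-106137778 on the minus strand of the same build as a processed pseudogene, a copy of a messenger RNA without introns, in 1 exon of 1668 bases. The nearest annotated gene, the snoRNA *Gm26047*, is 17029 bases away, and the nearest protein-coding gene, *Usp24*, 178435 bases. These positions come from the GENCODE annotation of GRCm38, which is not the GRCm39 build that the submitters' processing notes name.

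The pseudogene had 117 mismatches to the *Hspd1* transcript over 1668 aligned bases (93.0% identity), and the longest stretch shared without a mismatch was 58 bases. The first 60 bases of the reading frame show how *Hspd1-ps4* and another copy, *Hspd1-ps3*, differ from the parent gene. Capitals mark mismatches to *Hspd1*, and positions are counted from the A of its start codon.
Hspd1, bases 1 to 60: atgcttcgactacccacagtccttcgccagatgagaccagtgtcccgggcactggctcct
Hspd1-ps4, bases 1 to 60: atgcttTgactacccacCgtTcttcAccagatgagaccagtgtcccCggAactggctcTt
Hspd1-ps3, bases 1 to 60: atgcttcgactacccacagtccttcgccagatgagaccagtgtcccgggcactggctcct
In these bases *Hspd1-ps4* had 7 mismatches and *Hspd1-ps3* had 0. The first mismatch of *Hspd1-ps4*, C7T, turns codon 3 from CGA into the stop codon TGA, whereas the first stop codon of *Hspd1* and of *Hspd1-ps3* is codon 574.

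The 60-base stretch with the most mismatches between *Hspd1-ps4* and *Hspd1* shows where a read is easiest to assign. Capitals again mark mismatches to *Hspd1*.
Hspd1, bases 751 to 810: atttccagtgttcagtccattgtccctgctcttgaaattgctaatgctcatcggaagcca
Hspd1-ps4, bases 745 to 804: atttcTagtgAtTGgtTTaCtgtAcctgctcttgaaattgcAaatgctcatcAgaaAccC
Hspd1-ps3, bases 751 to 810: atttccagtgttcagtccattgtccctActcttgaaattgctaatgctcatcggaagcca
Here *Hspd1-ps4* had 12 mismatches and *Hspd1-ps3* had 1. When *Hspd1-ps4* was divided into consecutive stretches of 100 bases from its first base, each full stretch held between 3 and 11 mismatches.

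**Figure D1:**
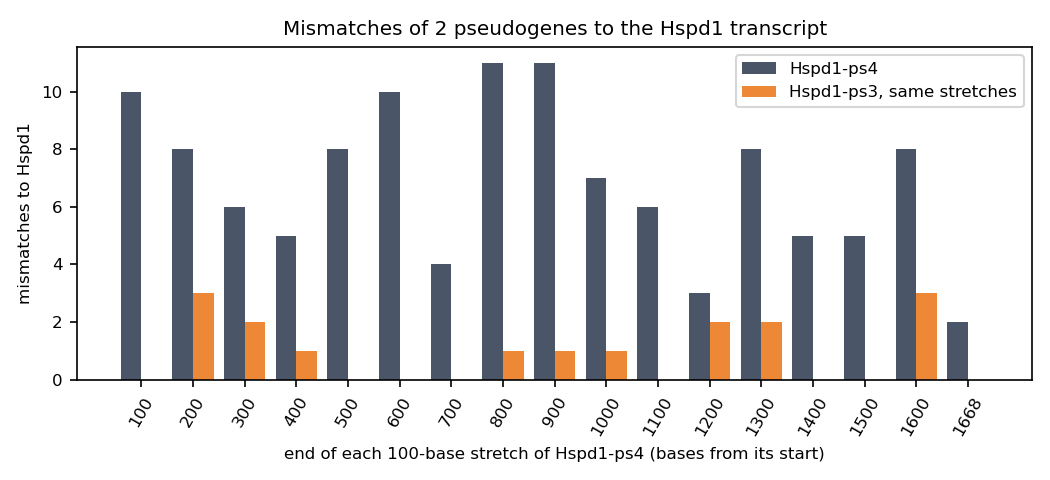
Mismatches to the *Hspd1* transcript (vertical axis) in successive 100-base stretches of *Hspd1-ps4* (horizontal axis, last stretch 68 bases), with bars for *Hspd1-ps4* and for *Hspd1-ps3* over the same stretches. No stretch of *Hspd1-ps4* is free of mismatches, with at most 11, whereas *Hspd1-ps3* has at most 3.

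How far reads of the 2 genes can be told apart depends on read length. Of the 1619 windows of 50 bases in *Hspd1-ps4*, 11 (0.679%) also occurred without a mismatch in an *Hspd1* transcript and 36 (2.22%) in any other annotated transcript. Of its windows of 75, 100 or 150 bases, 0 occurred in another transcript. *Hspd1-ps3*, with 99.0% identity, shared 60.7% of its 50-base windows and 26.8% of its 150-base windows with *Hspd1*. Among annotated transcripts, a read of *Hspd1-ps3* is therefore often ambiguous by sequence and an error-free read of *Hspd1-ps4* seldom is. The rest of the genome was not searched. The read length, the treatment of reads with several matches and the strand setting are not given in the sources used here.

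The *Hspd1-ps4* row was lower at 22°C than at 29°C. Its level at 22°C ranged from 5.53 CPM (median 6.84) to 10.02 CPM, with a mean of 7.10 ± 1.54 CPM (SD, n = 7). At 29°C it ranged from 14.5 CPM (median 21.5) to 25.1 CPM, with a mean of 20.6 ± 3.97 CPM (SD, n = 6). Every mouse at 22°C was below every mouse at 29°C, and the counts behind these values were 105 to 260 per library at 22°C and 370 to 654 at 29°C. The log2 fold change was -1.54 (SE 0.16), a level 2.90-fold lower at 22°C. *Hspd1-ps4* was 1 of 10 members past P-adj below 0.1 (edgeR, over 17779 genes), where 1.94% of all genes tested passed (1.21% in that direction), and 1 of 10 members whose groups did not overlap, where 1.24% of all genes did not (0.748% in that direction). As the row was chosen on this contrast, nothing is read from these counts. With the muscle markers as a covariate its log2 fold change was -1.47 (SE 0.18). Among the 8 libraries with higher totals, of which 2 are from 22°C, it was -1.35 (SE 0.25).

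The parent gene *Hspd1* had a smaller difference in the same direction. Its level at 22°C ranged from 133 CPM (median 163) to 184 CPM, with a mean of 159.9 ± 17.98 CPM (SD, n = 7). At 29°C it ranged from 148 CPM (median 186) to 212 CPM, with a mean of 186 ± 24.2 CPM (SD, n = 6). The groups overlapped, although 34 of the 42 pairings of a 22°C mouse with a 29°C mouse had the lower value at 22°C. The log2 fold change was -0.22 (SE 0.10). In CPM the mean of *Hspd1* was 26.4 higher at 29°C and that of *Hspd1-ps4* 13.5 higher.

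The ratio of the 2 rows was not constant. There were 4.49 ± 1.08 *Hspd1-ps4* counts per 100 *Hspd1* counts at 22°C (SD, n = 7; range 3.11 to 6.13) and 11.2 ± 2.42 at 29°C (SD, n = 6; range 8.02 to 13.8). All mice at 29°C were above all mice at 22°C. At 29°C, replicates 5 and 6 had the lowest ratios and the other 4 mice lay between 11.9 and 13.8. Whether some reads of *Hspd1* were counted in the pseudogene row was not tested on the reads themselves.

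**Figure D2:**
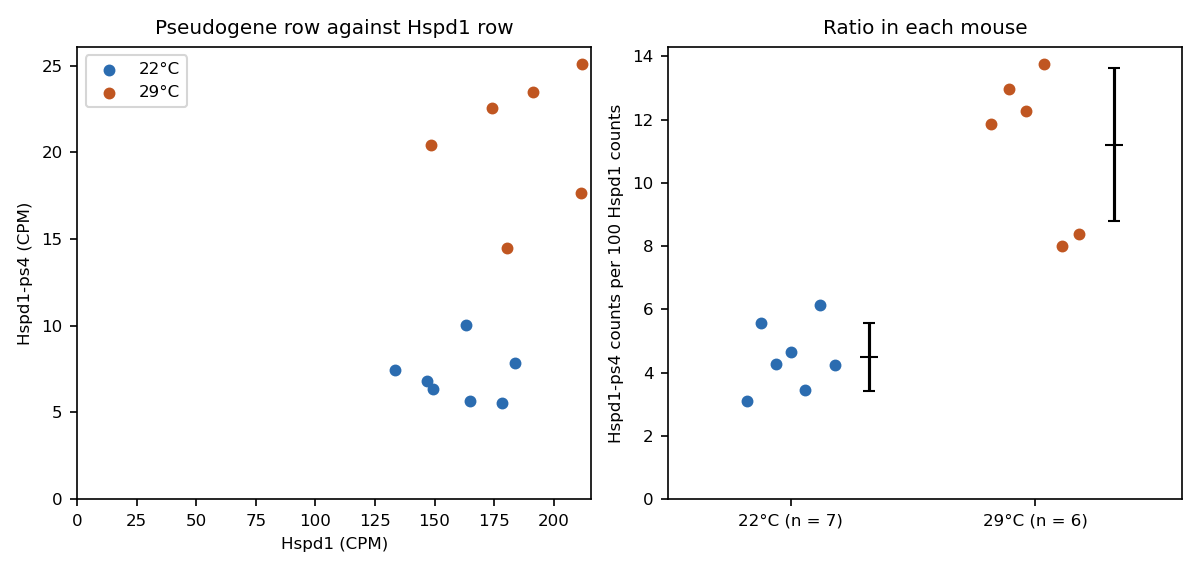
Left, the level of *Hspd1-ps4* against that of *Hspd1* (both in CPM), 1 point per mouse, and right, *Hspd1-ps4* counts per 100 *Hspd1* counts in each mouse with mean ± SD at 22°C (n = 7) and 29°C (n = 6). The temperatures overlap along the *Hspd1* axis and are separate along the *Hspd1-ps4* axis, with ratios of 3.11 to 6.13 at 22°C and 8.02 to 13.8 at 29°C.

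Within a temperature, which does not use the contrast the genes were chosen on, the pseudogene row was compared with its parent from mouse to mouse. At 22°C Pearson's r of their log2 CPM was -0.07 (exact two-sided permutation p = 0.851; P-adj = 0.851 over 4 correlations; n = 7) and Spearman's rho was -0.14 (exact permutation p = 0.783; P-adj = 0.906). At 29°C r was 0.12 (exact two-sided permutation p = 0.75; P-adj = 0.851; n = 6) and rho was 0.37 (exact permutation p = 0.497; P-adj = 0.906). Without the 2 mice whose *Hspd1* was farthest from the median, r was -0.20 at 22°C and -0.12 at 29°C. No relation was detected with these numbers of mice, which does not show that there is none. At 22°C the libraries with lower and higher totals number 5 and 2, too few for a value in each.

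The other copies of *Hspd1* with a row in the count table, *Hspd1-ps3* and *Hspd1-ps5*, gave few counts. The annotated copies *Hspd1-ps1* and *Hspd1-ps2* had no row under these names. *Hspd1-ps3* (ENSMUSG00000058809.9) had 8 to 31 counts per library at 22°C and 21 to 38 at 29°C, or 0.924 ± 0.379 CPM (SD, n = 7) and 1.10 ± 0.327 CPM (SD, n = 6). Its log2 fold change of -0.25 (SE 0.30) was within its error, and, since it shares so much sequence with *Hspd1*, its count is uncertain. *Hspd1-ps5* had 1 count in all 13 libraries and was not tested. *Hspd1-ps4* thus had more counts than either of these copies in every library.

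*Hspe1* (ENSMUSG00000073676.5), the co-chaperonin, lies head to head with *Hspd1*. In GRCm38 it spans chr1:55088132-55091307 on the plus strand, and its exons overlap those of *Hspd1* by 112 bases on opposite strands, where reads cannot be told apart without strand. The region where both genes start is known for heat shock elements, the sites that heat shock factors bind. A 30-base stretch at chr1:55088053-55088082 (RefSeq, GRCm38.p6, plus strand) is shown because it carries the motif for which all promoters were searched. The motif searched for was 3 half-sites, TTC, GAA and TTC, each 2 bases from the next, on either strand. Capitals mark 2 overlapping matches, which together span 18 bases and begin 89 bases before the RefSeq start of *Hspe1*.
Hspe1 promoter: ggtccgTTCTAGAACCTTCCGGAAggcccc
The motif occurred in 198 of 32851 promoter windows, each from 250 bases before to 50 bases after a start site (0.603%). Of the members, 8 matched the promoter table. The motif was in 1 of 2 windows of *Hspd1* and in the window of *Hspe1*, and these letters were not in those of *Trap1*, *Lonp1*, *Clpp*, *Clpx*, *Dnaja3* and *Grpel1*. As *Hspd1* and *Hspe1* start in the same region, their windows can hold the same letters, so these hits may not be separate. *Hspa9* and *Hspd1-ps4* were not searched.

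*Hspe1* was measured at 22.2 to 33.1 CPM (median 27.9) at 22°C, with a mean of 28.4 ± 3.73 CPM (SD, n = 7). At 29°C it was 26.7 to 40.3 CPM (median 30.03), with a mean of 31.1 ± 5.27 CPM (SD, n = 6). The highest value, in replicate 1 at 29°C, stood above the other mice, and the groups overlapped. The log2 fold change of -0.13 (SE 0.11) had the sign of that of *Hspd1* and was close to its error, and it was -0.05 without replicate 1 at 29°C, -0.08 without replicate 3 at 22°C and -0.06 with the cluster of totals (lower or higher) as a covariate.

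*Hspe1* was also compared with *Hspd1*, with which it shares its promoter region, among mice of 1 temperature. At 22°C r was -0.21 (exact two-sided permutation p = 0.661; P-adj = 0.851 over 4 correlations; n = 7), with rho -0.07 (exact permutation p = 0.906; P-adj = 0.906). At 29°C r was 0.71 (exact two-sided permutation p = 0.0917; P-adj = 0.367; n = 6), with rho 0.77 (exact permutation p = 0.103; P-adj = 0.411). Without the 2 mice farthest from the median of *Hspd1*, r was 0.10 at 22°C and 0.46 at 29°C. Neither temperature gave a relation past the threshold, and at 22°C the sign rested on replicate 3, without which r was 0.44.

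The levels of the HSP70 system overlapped between temperatures. *Hspa9* (ENSMUSG00000024359.11; chromosome 18) ranged from 293 CPM (median 345) to 443 CPM at 22°C, with a mean of 353 ± 53.0 CPM (SD, n = 7). At 29°C it ranged from 274 CPM (median 336) to 380.3 CPM, with a mean of 333 ± 39.1 CPM (SD, n = 6). At 22°C 2 of 7 mice were above every mouse at 29°C, and the groups otherwise overlapped. The log2 fold change was 0.08 (SE 0.11). It was 0.02 without replicate 1 at 22°C, 0.05 without replicate 3 at 22°C, 0.03 without replicate 4 at 29°C and 0.12 without replicate 6 at 29°C.

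The partners of HSP70 in the matrix had slightly higher means at 22°C, within overlapping ranges. *Dnaja3* (ENSMUSG00000004069.18), the J-protein that stimulates the ATPase of HSP70, was 62.9 to 93.2 CPM (mean 76.3 ± 11.0, SD, n = 7) in 22°C mice against 63.8 to 80.9 CPM (mean 71.3 ± 6.47, SD, n = 6) at 29°C. *Grpel1* (ENSMUSG00000029198.4), which releases ADP from HSP70, was 51.3 to 66.3 CPM (mean 57.5 ± 5.20, SD, n = 7) in 22°C mice against 44.4 to 60.3 CPM (mean 52.3 ± 5.88, SD, n = 6) at 29°C. Both overlapped between temperatures, with log2 fold changes of 0.10 (SE 0.09) for *Dnaja3* and 0.14 (SE 0.08) for *Grpel1*. For *Dnaja3* it was 0.04 without replicate 1 at 22°C, 0.06 with the muscle markers as a covariate and 0.15 with the cluster of totals. Exons of *Dnaja3* overlap those of *Coro7* by 153 bases and *Vasn* by 160 bases, and exons of *Grpel1* overlap those of *Tada2b* by 411 bases in GRCm38, so part of their counts is uncertain.

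*Trap1* (ENSMUSG00000005981.12), the HSP90 of mitochondria, showed almost no difference in mean. It was 157 to 200.1 CPM (median 174; mean 176 ± 17.1, SD, n = 7) in 22°C mice against 159 to 194 CPM (median 179.6; mean 178 ± 13.8, SD, n = 6) at 29°C. The range at 29°C lay inside that at 22°C, and the log2 fold change was -0.01 (SE 0.08). Exons of *Trap1* overlap those of *Dnase1* by 54 bases in GRCm38. The sign of the fold change turned in 8 of 21 alternative fits, which gave values from -0.05 to 0.01.

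Among the proteases, *Clpp* (ENSMUSG00000002660.9), the peptidase of ClpXP, came closest to separating the groups among the protein-coding members. It was 45.95 to 54.7 CPM (median 49.7; mean 50.1 ± 3.36, SD, n = 7) in 22°C mice against 43.0 to 49.3 CPM (median 46.6; mean 46.4 ± 2.48, SD, n = 6) at 29°C. At 22°C 5 of 7 mice were above every mouse at 29°C, and the log2 fold change was 0.11 (SE 0.05). *Clpx* (ENSMUSG00000015357.11), which unfolds substrates for *Clpp*, did not show this difference, at 45.3 to 66.4 CPM (mean 53.7 ± 6.71, SD, n = 7) in 22°C mice against 46.04 to 61.6 CPM (mean 54.0 ± 5.73, SD, n = 6) at 29°C. On the log2 scale the change was -0.01 (SE 0.09), with the other sign in 6 of 21 alternative fits (from -0.11 to 0.03). The difference between the fold changes of *Clpp* and *Clpx* was not tested.

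*Lonp1* (ENSMUSG00000041168.11), the protease that degrades oxidized matrix proteins, was 93.8 to 112 CPM (median 97.8; mean 101 ± 7.34, SD, n = 7) in 22°C mice against 87.5 to 105 CPM (median 95.4; mean 95.9 ± 6.22, SD, n = 6) at 29°C. The groups overlapped, with a log2 fold change of 0.07 (SE 0.06), or 0.03 with the cluster of totals as a covariate and 0.04 without replicate 3 at 22°C or replicate 4 at 29°C. *Lonp1* and *Clpp* lie on the same chromosome in GRCm38, 363418 bases apart.

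**Figure D3:**
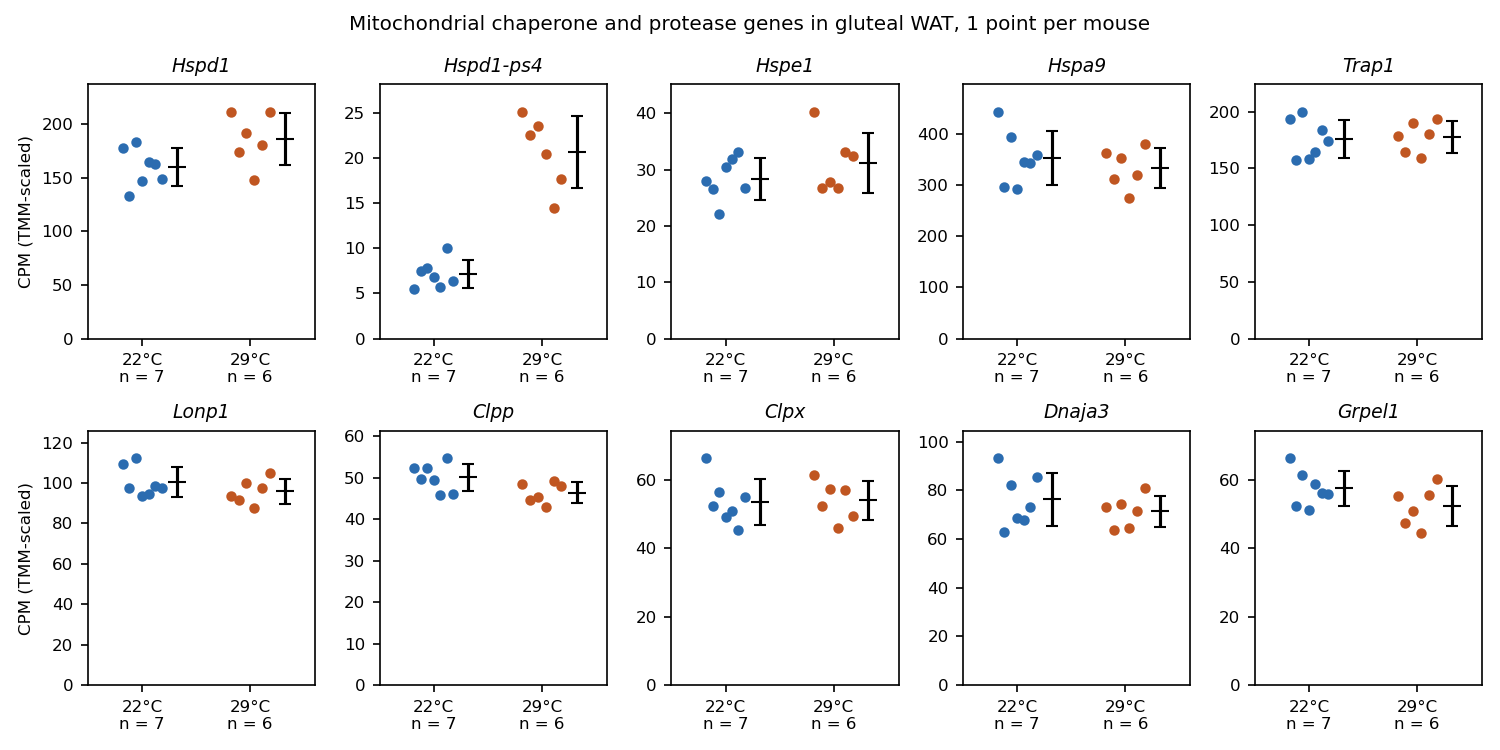
Level of each member in CPM (vertical axis, from 0), 1 point per mouse, with mean ± SD beside the points, at 22°C (n = 7) and 29°C (n = 6). The groups are separate for *Hspd1-ps4* (5.53 to 10.02 against 14.5 to 25.1 CPM) and overlap for the 9 protein-coding genes.

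Over the 9 protein-coding members, all of which passed the filter on low counts, 5 were higher and 4 lower at 22°C, where 48.4% of all genes tested were lower. Their median log2 fold change was 0.07, with a range from -0.22 to 0.14, beside a median of 0.01 over all genes tested. With edgeR 0 of 9 passed P-adj below 0.1, 1 had an unadjusted p below 0.05, where 18.5% of all genes tested did, and 0 passed with DESeq2. Their SEs were 0.05 to 0.11, below the median of 0.13 over all genes, and the coefficient of variation among mice of 1 temperature was 5.34% to 16.9%.

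Levels per kilobase of exon, in CPM per kb with exon lengths from the GRCm38 annotation, were compared between genes. At 22°C *Hspa9* was highest at 81.8 ± 12.3, followed by *Trap1* at 68.4 ± 6.66 and *Hspd1* at 60.5 ± 6.80 (SD, n = 7). The ranges of neighbours in this order overlapped, so the order of these 3 genes is not firm, and at 29°C *Hspd1* (70.5 ± 9.14, SD, n = 6) came before *Trap1* (69.1 ± 5.37). *Clpp* followed at 41.0 ± 2.75 and *Lonp1* at 23.0 ± 1.68 at 22°C, each apart from the gene above it in every mouse. *Dnaja3*, *Hspe1*, *Grpel1* and *Clpx* lay between 15.4 and 19.5 at 22°C with overlapping ranges. *Hspe1* was therefore lower per kb than *Hspd1*, its partner, at both temperatures, with length counted over all annotated exons of a gene. Whether *Hspe1* shares sequence with other places in the genome was not examined. *Hspd1-ps4* was lowest at 4.25 ± 0.925 at 22°C, and at 29°C, at 12.4 ± 2.38, its range overlapped that of *Grpel1*.

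Several members varied together from mouse to mouse. Deviations of log2 CPM from the temperature mean were compared across 13 mice, as a description, since all genes of a library share its scaling and its mix of cells. Over the 36 pairs of protein-coding members, Pearson's r had a median of 0.58. The highest values were 0.91 for *Trap1* and *Lonp1*, 0.89 for *Hspa9* and *Grpel1*, and 0.89 for *Hspd1* and *Hspa9*. *Hspe1* stood apart, with r between -0.25 and 0.32 to the other 8 genes and 0.29 to *Hspd1*. The other 28 pairs, a split made after the values were seen, had r between 0.24 and 0.91. *Hspd1-ps4* had r between -0.37 and 0.20 to the 9 protein-coding genes.

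**Figure D4:**
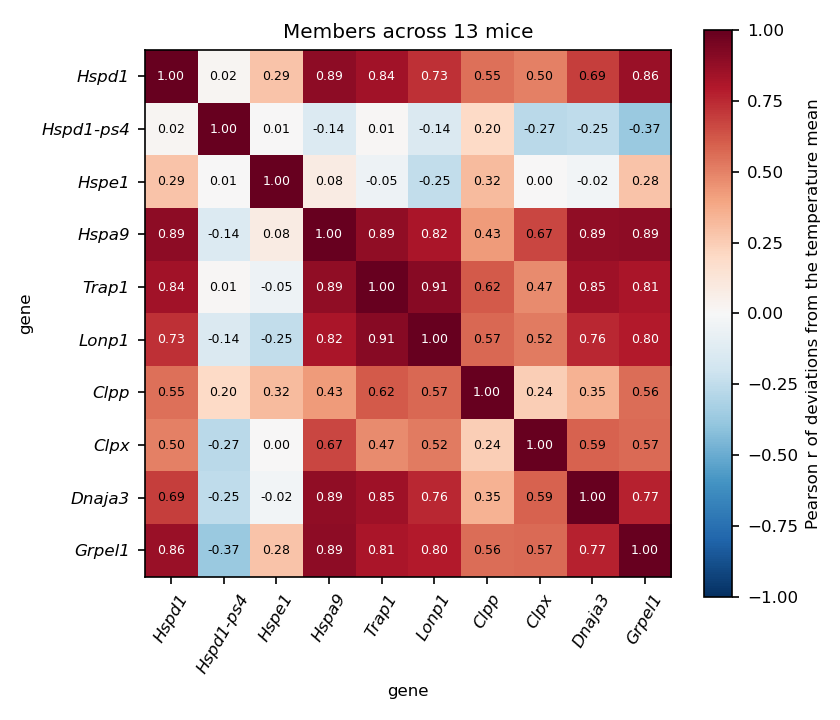
Pearson r between members (both axes) of the deviations of log2 CPM from the temperature mean across 13 mice, as color and number. The protein-coding members other than *Hspe1* have r of 0.24 to 0.91 with each other, whereas *Hspe1* and *Hspd1-ps4* have r of at most 0.32 with any member.

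The shared variation had the same mice at its ends. Replicate 4 at 29°C was the lowest of its temperature for 7 of the 9 protein-coding members, *Hspe1* and *Dnaja3* being the exceptions. At 22°C, replicate 1 was highest for 4 of them (*Hspa9*, *Clpx*, *Dnaja3* and *Grpel1*) and replicate 3 for 3 (*Hspd1*, *Trap1* and *Lonp1*). Replicate 1 at 22°C also had the highest sum of brown and beige adipocyte markers, 161 CPM, and replicate 3 the highest sum of white adipocyte markers at 22°C, 29729 CPM. The mean log2 CPM of the 15 muscle markers was 11.3 in replicate 1 at 22°C, and highest in replicate 7 at 22°C, at 11.6. Replicate 4 at 29°C had the highest sums at 29°C of macrophage markers, 499 CPM, and of epithelium markers, 25.3 CPM. The part of these cell types in the levels of the members was not tested, beyond the fits with the muscle markers as a covariate.

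By the same measure the genes most like *Hspd1* among all genes tested were *Pmpcb* (r = 0.94 over 13 mice), a subunit of the protease that removes import signals in the matrix, *Mut* (r = 0.93), the methylmalonyl-CoA mutase, and *Acadl* (r = 0.93), an acyl-CoA dehydrogenase of fatty acid oxidation. The genes most like *Hspd1-ps4* were *Dok2* (r = 0.92), an adaptor of tyrosine kinase signaling in blood cells, *Ppil3* (r = 0.88), a peptidyl-prolyl isomerase, and *Rgs10* (r = 0.88), a regulator of G-protein signaling. For both genes these are the highest values among 17779 genes over 13 mice. How high r would reach among unrelated genes was not tested. Among all genes ranked by likeness to *Hspd1*, *Hspa9* was number 17 and *Grpel1* number 42, *Hspe1* was number 3869 and *Hspd1-ps4* number 7751.

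The other genes of mitochondrial protein import, folding, proteolysis and stress signaling, 49 in 4 lists, were listed by function. Earlier results of these data were known when they were listed, so their p-values between temperatures are descriptive only. All 49 were tested. At 22°C 37 were higher and 12 lower, where 48.4% of all genes tested were lower. Their median log2 fold change was 0.07 beside 0.01 over all genes tested. With edgeR 1 of 49 passed P-adj below 0.1, as a higher level at 22°C, where 0.731% of all genes did, and 4 had an unadjusted p below 0.05, where 18.5% did. DESeq2 called 3 of 49, where it called 10.2% of all genes it tested.

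Partners of the chaperones, which include cochaperones and prohibitins, had 9 of 10 genes higher at 22°C (median log2 fold change 0.09), and 0 passed with edgeR or DESeq2, with 0 at an unadjusted p below 0.05. *Grpel2*, the paralog of *Grpel1*, was at 0.18 on the log2 scale (SE 0.09; edgeR P-adj = 0.299), and *Dnajc19*, a J-protein of the import motor, at 0.26 (SE 0.14; edgeR P-adj = 0.317). Neither passed the threshold. *Grpel2* was at 0.0044 with the cluster of totals as a covariate. *Dnajc19* was at 0.06 with the muscle markers as a covariate and at 0.17 without replicate 1 at 22°C.

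Of the proteases and peptidases, 10 of 15 were higher at 22°C (median log2 fold change 0.03), and 0 passed with edgeR or DESeq2, with 1 at an unadjusted p below 0.05. That gene was *Yme1l1*, an ATP-dependent protease of the inner membrane, at -0.15 (SE 0.07; edgeR P-adj = 0.266). *Immp1l*, a peptidase of the inner membrane, was at 0.23 (SE 0.12; edgeR P-adj = 0.316), and at 0.13 without replicate 1 at 22°C.

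The import machinery had 12 of 14 genes higher at 22°C (median log2 fold change 0.14). With edgeR 0 passed and 1 had an unadjusted p below 0.05, and with DESeq2 1 passed. *Tomm20*, a receptor of the outer membrane, was 71.3 ± 6.70 CPM (SD, n = 7) in 22°C mice against 62.3 ± 4.12 CPM (SD, n = 6) at 29°C, a log2 difference of 0.19 (SE 0.07; edgeR P-adj = 0.175). It was the gene that DESeq2 called (P-adj = 0.0995), but the difference was 0.07 with the cluster of totals as a covariate and 0.06 among libraries with higher totals (edgeR P-adj = 0.802 and 0.804). *Timm23*, the channel of the inner membrane, was at 0.30 (SE 0.15; edgeR P-adj = 0.308), at 0.18 with the muscle markers and at 0.47 with the cluster of totals as a covariate.

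Among 10 stress regulators, 6 were higher at 22°C (median log2 fold change 0.08) and 1 passed. *Atf4* (ENSMUSG00000042406.9), the transcription factor at the center of the integrated stress response, rose from 97.7 ± 13.6 CPM at 29°C (SD, n = 6; range 76.7 to 117) to 133 ± 11.3 CPM at 22°C (SD, n = 7; range 120.0 to 154). All mice at 22°C were above all mice at 29°C, and the log2 difference was 0.45 (SE 0.09; edgeR P-adj = 0.0610). The call was lost without 29°C replicate 2 (log2 difference 0.43; edgeR P-adj = 0.144), replicate 3 (0.38; 0.138) or replicate 5 (0.44; 0.102), without a filter on low counts (0.44; 0.126) and with the muscle markers as a covariate (0.41; 0.161). It was also lost with the cluster of totals as a covariate (0.34; 0.317) and among the libraries with higher totals (0.33; 0.375). *Cebpb*, a transcription factor that dimerizes with ATF4, was 97.9 ± 18.7 CPM (SD, n = 7) in 22°C mice against 70.8 ± 6.74 CPM (SD, n = 6) at 29°C, a log2 difference of 0.47 (SE 0.12; edgeR P-adj = 0.105). It passed with DESeq2 (P-adj = 0.0160) and, with edgeR, without 22°C replicate 3 (P-adj = 0.0999) or replicate 7 (P-adj = 0.0456) and with the replicate number as a block (0.54; P-adj = 0.0966). With the cluster of totals as a covariate its difference was 0.22 (edgeR P-adj = 0.609).

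Other regulators of the response to misfolded mitochondrial proteins did not pass. *Dele1*, which relays mitochondrial stress to ATF4, was at 0.27 (SE 0.15; edgeR P-adj = 0.347), at 0.14 without replicate 7 at 22°C, at 0.11 with the muscle markers and at 0.53 with the cluster of totals as a covariate. *Atf5*, *Ddit3* and *Hsf1*, transcription factors known to act on chaperone genes, had log2 fold changes of -0.04 (SE 0.10; edgeR P-adj = 0.844), 0.06 (SE 0.10; edgeR P-adj = 0.760) and -0.12 (SE 0.08; edgeR P-adj = 0.478). These 3 were picked with their values in view. In the rest of the list, *Trib3* was at -0.21 (SE 0.13; edgeR P-adj = 0.406) and *Ubl5* at -0.11 (SE 0.06; edgeR P-adj = 0.372). *Eif2ak1* was at 0.09 (SE 0.11; edgeR P-adj = 0.692) and *Sirt3* at 0.09 (SE 0.08; edgeR P-adj = 0.544). The higher *Atf4* at 22°C stood beside protein-coding members whose log2 fold changes lay between -0.22 and 0.14.

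**Figure D5:**
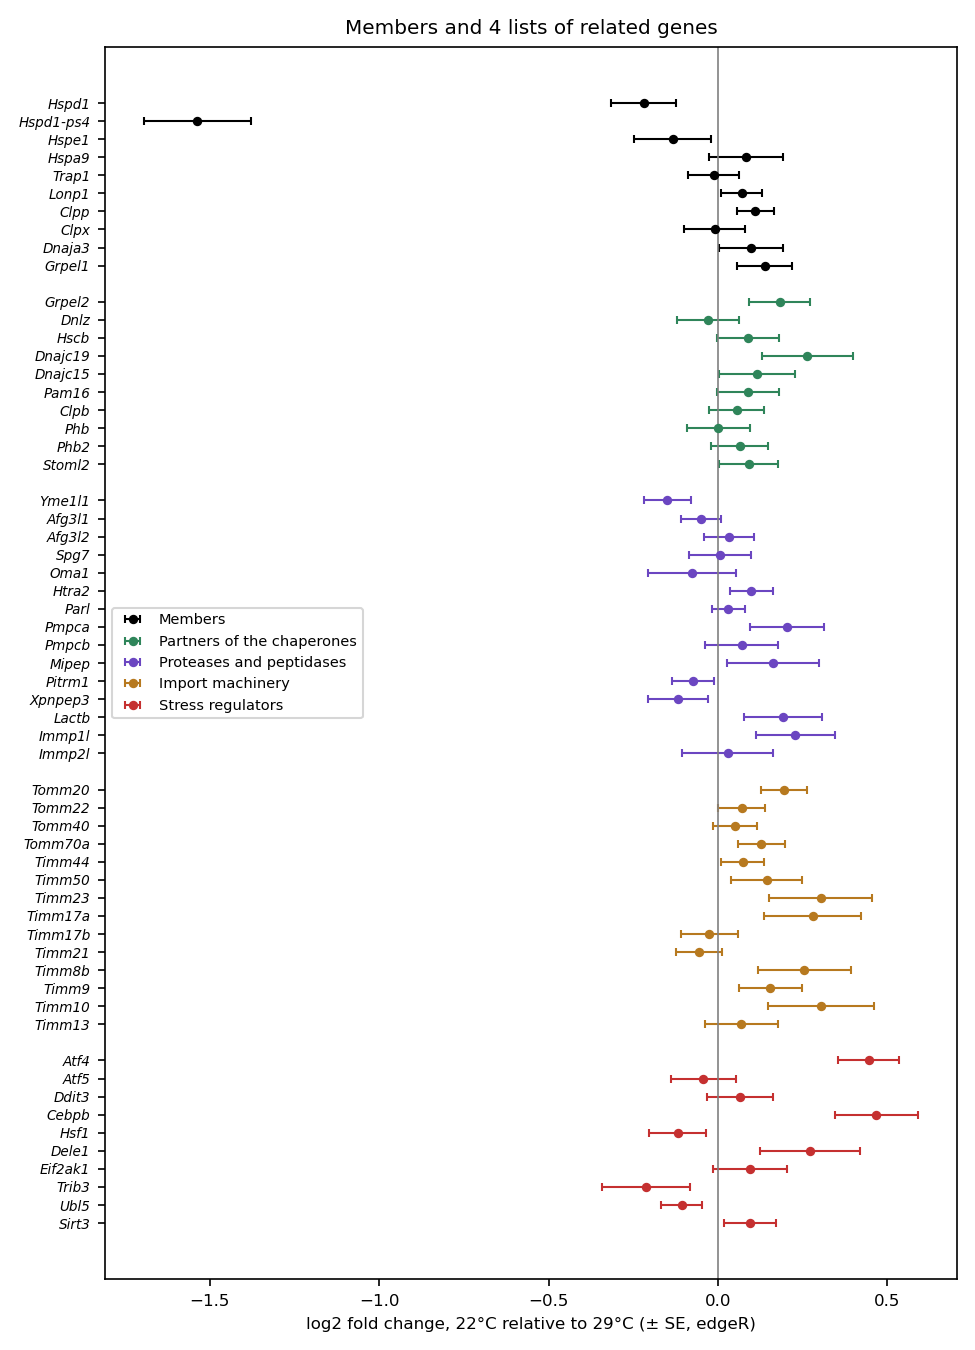
Log2 fold change at 22°C relative to 29°C (horizontal axis, ± SE from edgeR) for the 10 members and the 49 genes of 4 lists (vertical axis). *Hspd1-ps4* at -1.54 lies far to the left of the 9 protein-coding members, which lie between -0.22 and 0.14, and *Atf4* and *Cebpb* lie farthest to the right, at 0.45 and 0.47.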

How the data were processed

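RNA-seq libraries of gluteal WAT were grouped by the housing temperature in the labels. The authors aligned reads with STAR 2.7.5a to GRCm39, used featureCounts for the gene counts, and deposited these unnormalized counts beside regularized log2 values from DESeq2, per the labels and file headers; the paper names mm10 for cultured cells. All rows name a gene. Counts were fitted with edgeR 4.0.16 (R 4.3.3; TMM, filterByExpr, quasi-likelihood F test, no covariate), with Benjamini-Hochberg adjustment over 17779 genes and a threshold of P-adj below 0.1. SEs were taken as |log2 fold change|/√F. Log2 CPM use a prior count of 2. Counting error alone leaves room for 3 counts (0.119 to 0.134 CPM) where 0 were seen. The smallest chi-square per gene was 17.1 in 78 library pairs, and none was a duplicate. Members and lists were chosen with earlier results of these data known; from each list the genes past the threshold and the 2 with the smallest p were named, and the 3 genes most like *Hspd1* and *Hspd1-ps4*. *Ddit3* has 2 rows, of which the one with the lowest identifier was used. Alternatives were DESeq2 1.42.0, its size factors in edgeR, no filter, a replicate block, the muscle markers or the cluster of totals as a covariate, only libraries with higher totals, each mouse left out, limma 3.58.1 on the deposited log2 values and P-adj below 0.05. For the correlations, log2 CPM with another prior count and the deposited log2 values were also used. Fits were tested on simulated data. Sequences were matched by identifier to GENCODE M21 transcripts (GRCm38) and RefSeq promoters (GRCm38.p6).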

Additional observations from a re-analysis of the deposited data

How the results depend on the processing

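Over 21 alternative fits each, the log2 fold changes of 8 of the 10 members kept their sign, *Trap1* and *Clpx* being the exceptions, although those of *Hspe1*, *Hspa9*, *Dnaja3* and *Lonp1* moved by over 1.5 times in some. That of *Hspd1-ps4* lay between -1.64 and -1.13, the latter from limma on the regularized log2 values, which shrink low counts, and that of *Hspd1* between -0.28 and -0.18. The number of genes past the threshold, 345, was 1676 with DESeq2, 42 without a filter on low counts, 45 with the muscle markers as a covariate, 4 with the cluster of totals as a covariate, 8 among libraries with higher totals and 40 at P-adj below 0.05. Without each mouse in turn it ranged from 32 (without 29°C replicate 3) to 652 (without 22°C replicate 6). The count of members past the threshold, from which nothing is read, went from 1 to 0 with the cluster of totals as a covariate and among libraries with higher totals, and was 1 without each mouse in turn. The 1 pathway gene became 3 with DESeq2 and 0 without a filter, with the muscle markers, with the cluster of totals, among libraries with higher totals and at P-adj below 0.05, and ranged from 0 to 2 without each mouse in turn. *Grpel2* went to -0.0034 among libraries with higher totals. Apart from the removal of samples or genes in those fits, the cause was not tested. Same-numbered mice deviated together, with correlations of 0.51, 0.41, 0.35, 0.49, 0.05 and 0.39 for numbers 1 to 6. Deviations sum to 0 within a temperature, so for these numbers the covariances with differently numbered mice average below 0. Same-numbered mice were thus more alike, number 5 least so. The labels do not say what the numbers mark, and the main fit did not use them. With the replicate number as a block 214 genes, 1 member and 2 pathway genes (*Atf4* and *Cebpb*) passed, and *Hspd1-ps4* was at -1.51. In that fit the SEs of all members except *Clpp* and *Hspd1-ps4* were lower, from 0.10 to 0.07 for *Hspd1*. Without the 2 farthest mice, r of *Hspd1* and *Hspe1* at 22°C was 0.10 and r of *Hspd1* and *Hspd1-ps4* at 29°C was -0.12. Leaving out each mouse gave r of *Hspd1* and *Hspe1* from -0.48 to 0.44 at 22°C, positive without replicate 3, and from 0.61 to 0.80 at 29°C. For *Hspd1* and *Hspd1-ps4* it gave -0.27 to 0.18 at 22°C, positive without replicate 1 (0.18) or 2 (0.03), and -0.18 to 0.33 at 29°C, negative without replicate 1. The ratio of the 2 rows stayed between 4.22 and 4.72 at 22°C and between 10.7 and 11.8 at 29°C. At 6 and 7 mice, differences near the SEs of 0.05 to 0.11 in the protein-coding members were not detectable.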
